A study of Mus musculus with 10 samples.

Results

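Casz1 encodes a zinc finger transcription factor, and its locus held 44 of the 108253 peaks quantified in the series. A peak was a member when the deposited annotation assigned it to the symbol Casz1, and peaks were numbered 1 to 44 along chromosome 4. The gene was chosen by its change with glucose in the study of these libraries, so the H3K18La change with glucose at these peaks is given as a description with no test. The values that named it were transcript and H3K18La levels. The H3K27Ac libraries were not among them, and the H3K27Ac change is tested peak by peak. Over all tested peaks the deviations of same-numbered libraries correlated by at most 0.19. That does not show that the H3K27Ac test is free of the choice of the gene. A locus named for a change with glucose is no random draw. Its share of calls, for the H3K27Ac change or between the marks, is not independent support. All 44 peaks had a mean of at least 1 RPKM (reads scaled to the length of the peak and to the total of the library) over the 10 libraries, as did 72467 of all peaks.

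Retinas of wild-type C57BL/6J mice were explanted at 28 days of age and cultured for 48 hours with glucose at 5 mM or 25 mM. No group carried a mutant allele or a drug. Lactylation of histone H3 lysine 18 (H3K18La) was profiled in 3 libraries per group, and lysine 27 acetylation (H3K27Ac) in 2, from 500000 dissociated cells each. The second antibody is in doubt in the sources: the sample titles and the study's methods say H3K27Ac, whereas the deposited protocol names H3K9me3, a repressive mark, and a protein A fusion of MNase where the methods name Tn5. The titles were followed, so each H3K27Ac value is that of a library titled so. All 10 libraries carried the same batch label, and the study's methods speak of biological replicates without saying whether these libraries came from separate animals, so p-values measure the spread between libraries.

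In CUT&Tag a transposase is tethered to an antibody-bound histone mark and cuts out the DNA around it for sequencing. H3K27Ac is a textbook mark of active promoters and enhancers, and H3K18La is a modification whose donor derives from lactate, the product of glycolysis. In the mouse retina Casz1 is known as a temporal factor of progenitor cells that favours rod production. In mature rods it takes part in the organisation of the nucleus. It also has partners in the NuRD deacetylase complex.

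The gene spans chr4:148804429-148954889 on the forward strand of GRCm38, 150.461 kb. Of the 44 peaks, 9 were intergenic and all of these lay upstream, from 40.4 kb to 4.34 kb before the main transcription start site. A further 3 were promoter peaks, 7 lay in the first intron, 20 in later introns, and 5 in exons or the 3′ UTR. Together they covered 54.6 kb, with a median width of 1138 bp, and 152 of the 25400 symbols in the annotation had at least as many peaks (the median symbol had 2). The next peaks outside the rule lay 46.0 kb upstream of the start, assigned to Gm13203, and 153 kb past the start, just beyond the end of the gene, assigned to Gm17029. One peak inside the gene body, 110 kb past the start, was assigned to the promoter of Gm15969 and was not counted.

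The 3 promoter peaks sat at different starts. Peak 10 covered the start shared by the long transcripts, peak 29 an internal start 85.0 kb downstream (transcript ENSMUST00000140617), and peak 33 another internal start 96.7 kb downstream (ENSMUST00000147270). The sequences below show how unlike the promoters are in base composition, beside peaks 1 and 26, which carried the lowest and the highest H3K27Ac relative to H3K18La among peaks that passed the test at 25 mM. Capitals mark a match on either strand to one of 4 motifs, the GC box GGGCGG, the photoreceptor homeodomain core TAATCC and the E-boxes CAGCTG and CATCTG. The promoter windows and genome sequence are from RefSeq (GRCm38.p6), printed on the forward strand.
Casz1 main promoter, in peak 10, chr4:148804142-148804441: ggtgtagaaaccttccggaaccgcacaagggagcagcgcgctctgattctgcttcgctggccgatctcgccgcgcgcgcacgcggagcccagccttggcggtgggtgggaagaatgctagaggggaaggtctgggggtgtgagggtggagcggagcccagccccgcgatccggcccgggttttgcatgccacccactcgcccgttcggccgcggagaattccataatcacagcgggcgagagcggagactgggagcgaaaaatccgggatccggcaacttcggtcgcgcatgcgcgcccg
Casz1 internal promoter, in peak 29, chr4:148889097-148889396: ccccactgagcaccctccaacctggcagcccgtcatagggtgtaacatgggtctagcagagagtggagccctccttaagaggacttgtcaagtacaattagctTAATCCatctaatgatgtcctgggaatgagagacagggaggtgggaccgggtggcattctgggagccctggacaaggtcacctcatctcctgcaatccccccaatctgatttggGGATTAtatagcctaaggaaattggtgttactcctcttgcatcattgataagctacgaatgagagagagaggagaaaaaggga
Casz1 promoter peak 33, central 300 bp, chr4:148901237-148901536: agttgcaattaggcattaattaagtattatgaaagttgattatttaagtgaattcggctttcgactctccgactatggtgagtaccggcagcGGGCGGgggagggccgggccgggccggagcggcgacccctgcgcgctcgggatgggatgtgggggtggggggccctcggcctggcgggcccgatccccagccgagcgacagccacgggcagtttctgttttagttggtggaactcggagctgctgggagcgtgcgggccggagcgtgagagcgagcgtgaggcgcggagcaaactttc
Casz1 intergenic peak 1, central 300 bp, chr4:148763862-148764161: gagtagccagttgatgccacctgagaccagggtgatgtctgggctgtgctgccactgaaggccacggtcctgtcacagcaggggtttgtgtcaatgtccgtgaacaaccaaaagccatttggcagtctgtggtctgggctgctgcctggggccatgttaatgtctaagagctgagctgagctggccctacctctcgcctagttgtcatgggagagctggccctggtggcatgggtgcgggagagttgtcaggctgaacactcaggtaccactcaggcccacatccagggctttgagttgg
Casz1 intron 2 peak 26, central 300 bp, chr4:148868996-148869295: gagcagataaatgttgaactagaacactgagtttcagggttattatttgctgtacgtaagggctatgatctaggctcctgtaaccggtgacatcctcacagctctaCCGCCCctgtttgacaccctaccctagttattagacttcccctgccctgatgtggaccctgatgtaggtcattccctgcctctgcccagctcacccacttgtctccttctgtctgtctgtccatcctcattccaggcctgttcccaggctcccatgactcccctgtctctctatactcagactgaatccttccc

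The window at the main start had 67.0% GC with 36 CG dinucleotides and held none of the 4 motifs. The window at peak 29 had 50.3% GC with 3 CG dinucleotides and held TAATCC once on each strand. Among all 32851 RefSeq promoter windows of 300 bp, TAATCC was present in 7.06%, GGGCGG in 35.7%, CAGCTG in 16.3% and CATCTG in 17.2%. The centre of peak 33 had 62.7% GC with 29 CG dinucleotides and held 1 GC box, and the centre of peak 26 held 1 GC box while that of peak 1 held none of the 4. In the central 300 bp of the 44 peaks, a GC box was found in 11 (11.7% of all peaks), TAATCC in 5 (11.4%), CAGCTG in 7 (20.5%) and CATCTG in 12 (25.1%). The 27 intronic peaks had a median GC content of 54.0% (49.0% over all intronic peaks) and 8 of them held a GC box (5.02% of all intronic peaks). A match is only a description of letters and does not mark a binding site.

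RPKM values were whole multiples of 1 read in each library (100% of values, within 0.01 read), which gave denominators of 1358008 to 5182766 reads for H3K18La and 4324289 to 7424470 for H3K27Ac. Reads in all peaks were 11.9% ± 0.0965 (SD, n = 3) of the denominator for H3K18La at 5 mM and 32.6% ± 2.08 (SD, n = 3) at 25 mM. For H3K27Ac they were 26.3% ± 7.35 (SD, n = 2) and 63.0% ± 9.19 (SD, n = 2). The Casz1 peaks held 148 to 507 reads in a H3K18La library at 5 mM, and 1307 to 1924 at 25 mM. For H3K27Ac they held 878 and 2196 reads in low glucose, and 10303 and 6918 in high glucose. In 2 of the H3K18La libraries at 5 mM some Casz1 peaks held 0 reads, 2 peaks in replicate 1 and 6 in replicate 3, and a count of 0 allows up to 3 reads, counting error only.

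Both marks were stronger over the whole locus at 25 mM. The width-weighted mean over the 44 peaks was 2.17, 1.79 and 2.00 RPKM in the H3K18La libraries at 5 mM and 12.5, 8.67 and 8.07 RPKM at 25 mM, a ratio of means of 4.91. For H3K27Ac the same mean was 3.72 and 6.48 RPKM in low glucose and 26.2 and 17.1 RPKM in high glucose, a ratio of 4.25. Neither mark's groups overlapped, which was also so for the mean over all 108253 peaks. That mean was 1.23 to 1.25 RPKM for H3K18La at 5 mM and 3.24 to 3.63 RPKM at 25 mM. For H3K27Ac it was 2.19 and 3.28 RPKM at 5 mM and 7.22 and 5.87 RPKM at 25 mM. The H3K27Ac difference at Casz1 had an exact two-sided permutation p of 0.333, the smallest that 2 against 2 libraries allow. Over all 108253 peaks the corresponding ratios were 2.74 for H3K18La and 2.39 for H3K27Ac, and with each library scaled to its reads in peaks the Casz1 ratios were 1.78 for both marks.

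**Figure D1:**
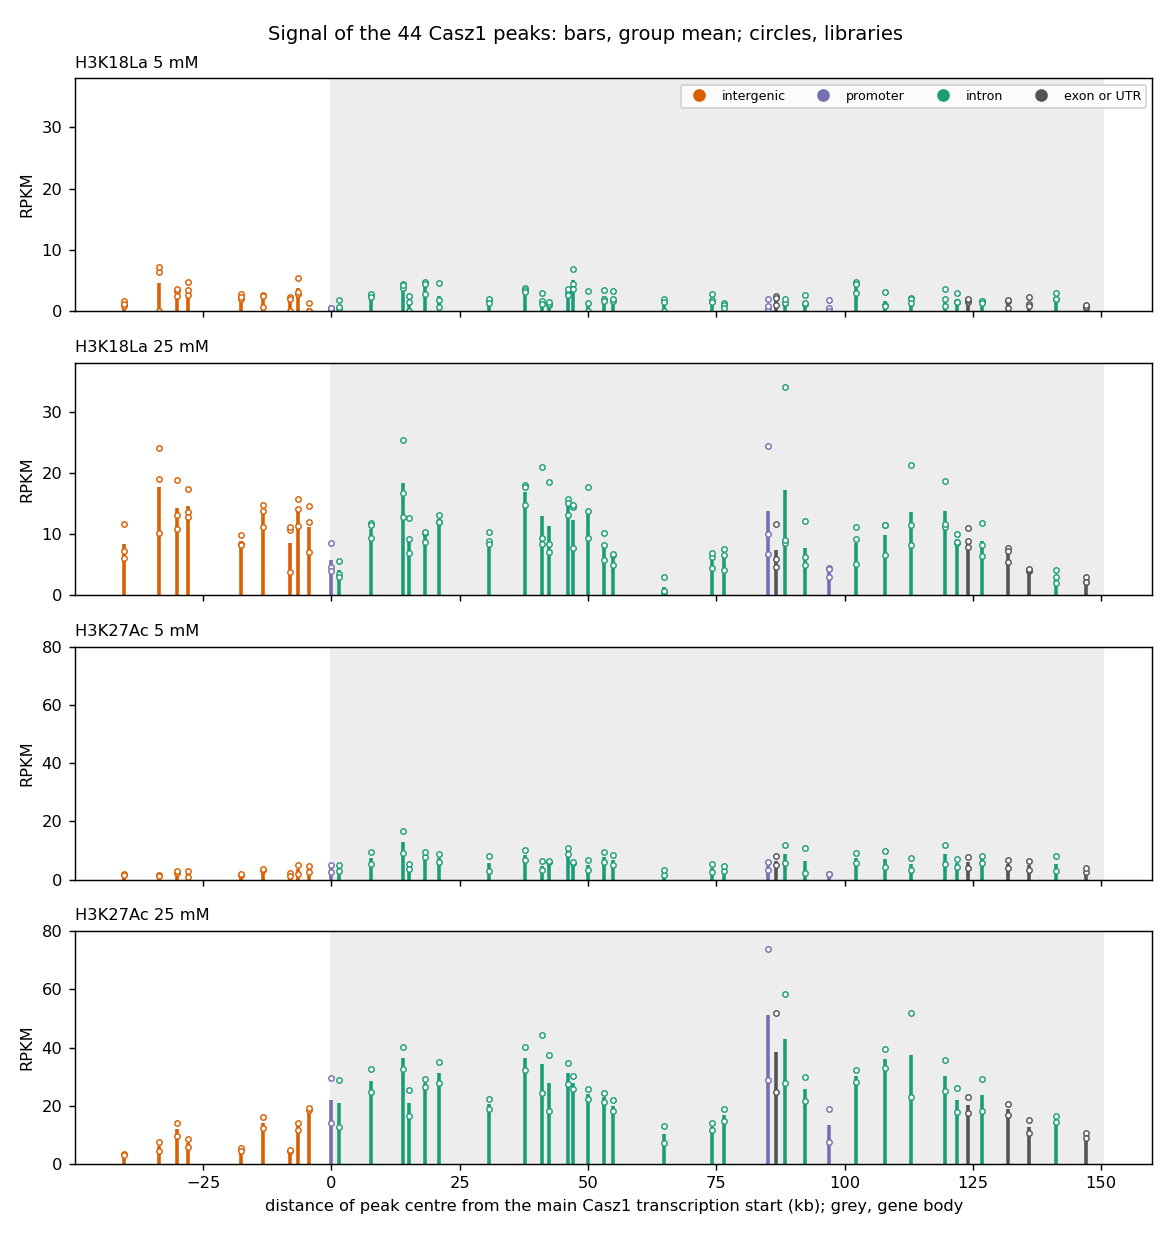
RPKM of the 44 Casz1 peaks by distance of the peak centre from the main transcription start in kb, in 4 panels by mark and glucose level. Bars give the group mean and circles the libraries (3 for H3K18La, 2 for H3K27Ac), coloured by peak class, and the vertical scale differs between the marks. H3K18La at 25 mM was similar in height upstream of and within the gene. H3K27Ac means at 25 mM ran from 3.14 RPKM (peak 1) to 18.8 RPKM (peak 9) upstream. In the gene they ran from 9.68 RPKM (peak 44) to 51.4 RPKM (peak 29), so the ranges overlapped.

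The main promoter was weakly marked in low glucose. Peak 10 had 0.333, 0.542 and 0.517 RPKM of H3K18La at 5 mM and 8.57, 4.66 and 4.03 RPKM at 25 mM. It had 2.60 and 4.98 RPKM of H3K27Ac at 5 mM and 29.6 and 14.2 RPKM at 25 mM. The groups did not overlap for either mark, and the first replicate at 25 mM was the highest of its group for both. H3K27Ac rose with glucose at this promoter by 2.35 on the log2(RPKM + 0.5) scale (SE 0.50, limma, Benjamini-Hochberg adjusted p = 0.0296 over all 72467 tested peaks).

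The internal promoter at peak 29 was the strongest Casz1 promoter peak. Its H3K18La was 0.316, 0.771 and 1.96 RPKM at 5 mM and 24.4, 10.00 and 6.74 RPKM at 25 mM. Its H3K27Ac was 3.39 and 6.11 RPKM at 5 mM and 74.0 and 28.7 RPKM at 25 mM. The first H3K27Ac library at 25 mM was far above the second, and both were above the libraries at 5 mM. The H3K27Ac change of 3.20 on the log2 scale (SE 0.63, limma adjusted p = 0.0296) was the largest of the 44 peaks. The 2 nearest peaks downstream, peak 30 in an exon of the short transcript and peak 31 in intron 3, had H3K27Ac means of 38.4 and 43.1 RPKM at 25 mM, next to 51.4 RPKM at peak 29. These were the 3 highest H3K27Ac means of the locus at 25 mM, an order that rested on replicate 1. In replicate 2 peaks 29, 30 and 31 had 28.7, 24.7 and 27.7 RPKM. These values were below those of peaks 13 and 18, among others, at 32.7 and 32.4 RPKM.

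The third promoter, peak 33, had the lowest mean of the 3 for H3K27Ac at both glucose levels and for H3K18La at 25 mM. It had 1.79, 0.487 and 0 RPKM of H3K18La at 5 mM, where the last library held 0 reads, and 4.49, 4.34 and 2.98 RPKM at 25 mM. Its H3K27Ac was 2.04 and 2.03 RPKM at 5 mM and 18.9 and 7.64 RPKM at 25 mM, a rise of 2.31 on the log2 scale (SE 0.63, limma adjusted p = 0.0376). Its H3K27Ac at 25 mM was below that at peak 29 in both libraries, and its mean was 3.38 times its H3K18La mean.

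**Figure D2:**
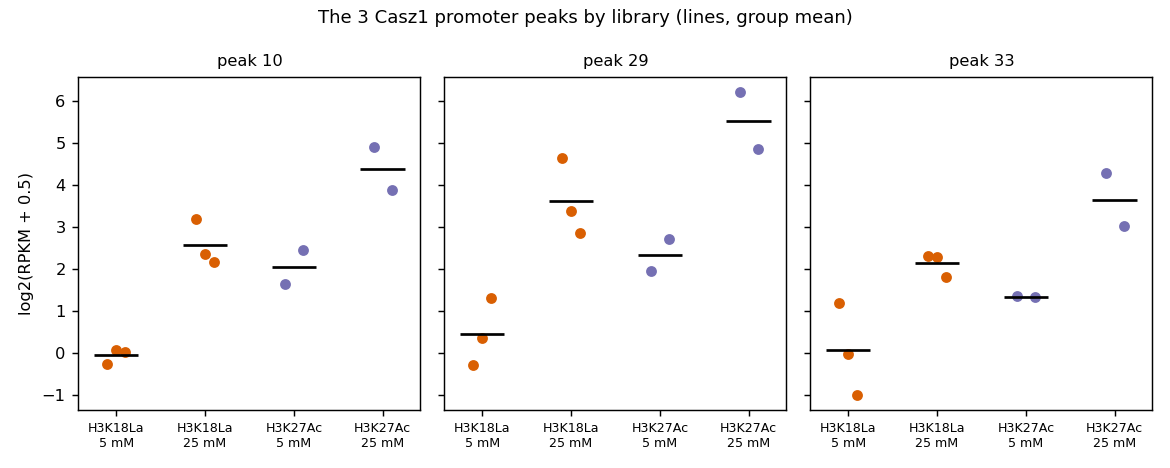
The 3 Casz1 promoter peaks in each library on the log2(RPKM + 0.5) scale, with lines at the group means (3 libraries per H3K18La group and 2 per H3K27Ac group). All libraries at 25 mM lie above all libraries at 5 mM of the same mark at each of the 3 peaks, and peak 29 has the largest distance between glucose levels for H3K27Ac, 3.20.

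The H3K27Ac change with glucose passed the test in every peak class, though not at every peak. Its median was 1.93 on the log2 scale over the 44 peaks, beside 0.83 over all tested peaks. H3K27Ac rose at 34 of the 44 peaks (limma, adjusted p under 0.05), beside 10.1% of all tested peaks, and the groups did not overlap at 44 of 44, beside 68.6% of all tested peaks. All 3 promoter peaks passed, as did 23 of 27 intronic, 5 of 9 intergenic and 3 of 5 exonic or UTR peaks, beside 19.1%, 8.14%, 6.93% and 8.81% of all tested peaks of these classes. The median change was 2.35 in promoter, 1.97 in intronic, 1.81 in intergenic and 1.75 in exonic or UTR peaks.

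Among the peaks that did not pass were both ends of the locus. The farthest upstream, peak 1, had 1.89 and 1.58 RPKM at 5 mM and 3.41 and 2.87 RPKM at 25 mM, a difference of 0.70 (SE 0.46, limma adjusted p = 0.310). The farthest downstream, peak 44 in the last exon, had 2.56 and 4.09 RPKM at 5 mM and 10.5 and 8.83 RPKM at 25 mM, a difference of 1.44 (SE 0.45, limma adjusted p = 0.0547). Peak 1 had the smallest H3K27Ac difference of the 44. The 34 calls had adjusted p-values from 0.0296 to 0.0421. The count was 0 without H3K18La 25 mM replicate 2, which enters the fit through the shared spread, and 0 without H3K27Ac 5 mM replicate 1, H3K27Ac 25 mM replicate 1 or H3K27Ac 25 mM replicate 2, while the median over the 44 peaks stayed between 1.60 and 2.28. The share of reads in peaks moved with glucose as well, and scaled to it the median was 0.71 (-0.21 over all tested peaks) with 0 peaks passing, and peak 1 turned to -0.34. At an unadjusted limma p under 0.05 the count in the unscaled fit was 41 of 44, beside 30.8% of all tested peaks.

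**Figure D3:**
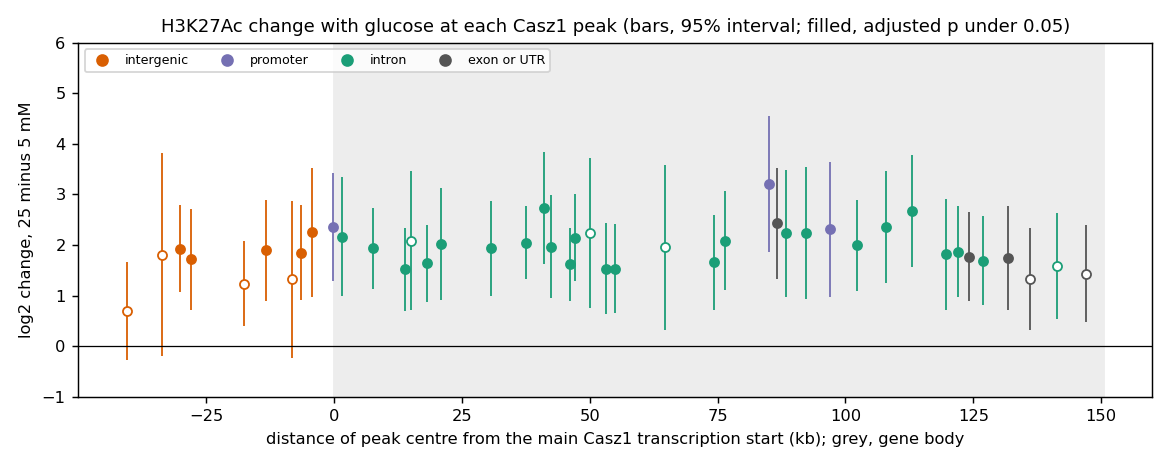
H3K27Ac at 25 mM minus 5 mM on the log2(RPKM + 0.5) scale at each of the 44 Casz1 peaks, by distance from the main transcription start in kb, with 95% intervals from limma and 2 libraries per glucose level. Filled circles passed an adjusted p of 0.05 (34 of 44). Every estimate is above 0, from 0.70 at peak 1 to 3.20 at peak 29.

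H3K18La values were also higher at 25 mM at each peak, as values that bear on the choice of the gene. The log2 difference had a median of 2.11 over the 44 peaks and 1.04 over all tested peaks, and it ranged from 0.26 to 3.85. The libraries at 25 mM were all above those at 5 mM at 42 of 44 peaks, beside 50.3% of all tested peaks. The 2 others were peaks 26 and 43, in intron 2 and in a late intron of the longest transcript. Peak 26 had 0, 1.92 and 1.47 RPKM at 5 mM and 3.04, 0.490 and 0.672 RPKM at 25 mM, whereas its H3K27Ac was 1.38 and 3.21 RPKM at 5 mM and 13.0 and 7.24 RPKM at 25 mM. It was the peak with the lowest H3K18La mean of the locus at 25 mM, 1.40 RPKM, and its H3K18La difference turned negative under 2 scalings (-0.62 with libraries centred on their medians, -0.57 scaled to reads in peaks).

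The marks differed most in where they lay, over peaks that match in number the H3K18La set of developing retinas, so that places with H3K27Ac alone may not be represented. In the gene, H3K27Ac was above H3K18La at 35 of 35 peaks, whether intronic, exonic or promoter, at both glucose levels. Upstream of the gene it was above H3K18La at 2 of 9 peaks at 25 mM and 4 of 9 at 5 mM. Over all tested peaks at 25 mM it was above H3K18La at 13269 of 14815 promoter and 22070 of 32087 intronic peaks. It was above at 5469 of 7204 exonic or UTR and 7731 of 18244 intergenic peaks. At 5 mM these counts were 13862, 25975, 6073 and 11732 of the same totals. H3K27Ac was thus the higher mark at most tested peaks in genes. With libraries scaled to their reads in peaks, the Casz1 intronic peaks above 0 were 26 of 27 at 25 mM and 23 of 27 at 5 mM, and the Casz1 intergenic ones 0 of 9 and 1 of 9. The median difference between the marks at 25 mM (H3K27Ac minus H3K18La, log2) was 1.82 in promoter, 1.38 in intronic, 1.50 in exonic or UTR and -0.68 in intergenic peaks. Over all tested peaks of these classes the medians were 1.82, 0.52, 0.82 and -0.17. At 5 mM the Casz1 medians were 1.89, 1.40, 1.60 and -0.15. Scaled to reads in peaks, the Casz1 promoter, intronic and intergenic medians were 0.90, 0.47 and -1.49 at 25 mM. At 5 mM they were then 1.17, 0.46 and -1.18.

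H3K27Ac was higher than H3K18La by the test at 27 of 44 peaks at 5 mM, beside 28.1% of all tested peaks, and at 28 of 44 at 25 mM, beside 24.6% (limma, adjusted p under 0.05). At 25 mM these were 2 of 3 promoter, 21 of 27 intronic and 5 of 5 exonic or UTR peaks, beside 60.7%, 17.7% and 27.8% of all tested peaks of these classes, so the promoter count was near its background. H3K18La was higher at 1 peak at 25 mM, beside 2.07% of all tested peaks, and at 0 peaks at 5 mM, beside 0.399%, where 0 of the 44 had an unadjusted limma p under 0.05 in that direction and 0 passed with voom on the recovered reads. The gene was named in part by H3K18La values, so the counts of this comparison of marks are not independent support. Several single libraries carried these counts. The count at 5 mM was 1 without H3K27Ac 5 mM replicate 2. The count at 25 mM was 13 without H3K18La 25 mM replicate 2, 15 without H3K18La 25 mM replicate 3, 1 without H3K27Ac 25 mM replicate 1 and 15 without H3K27Ac 25 mM replicate 2. A comparison of levels between 2 antibodies rests on the scaling, and with libraries scaled to their reads in peaks H3K27Ac was higher at 1 peak at 5 mM and 0 at 25 mM, and H3K18La at 3 and 4.

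The 1 peak with more H3K18La by the test was peak 1, 40.4 kb upstream, a count near the background, which was 4.69% among all tested intergenic peaks. It had 11.7, 7.25 and 6.07 RPKM of H3K18La and 3.41 and 2.87 RPKM of H3K27Ac at 25 mM, a difference of -1.23 (SE 0.42, limma adjusted p = 0.0399). The 3 H3K18La libraries were all above both H3K27Ac libraries. Peak 1 did not pass without H3K18La 25 mM replicate 1 (difference -0.98, limma adjusted p = 0.126), without H3K18La 25 mM replicate 2 (0.0786), or without H3K27Ac 25 mM replicate 1 (0.156) or 2 (0.213). It also did not pass with a pseudocount of 0.1 (limma adjusted p = 0.0797) or without the filter on low peaks (0.0504). Peak 2, 33.6 kb upstream, had the largest excess of H3K18La in size, with 24.0, 19.0 and 10.2 RPKM beside 7.49 and 4.54 RPKM of H3K27Ac, a difference of -1.44 (SE 0.85, limma adjusted p = 0.236).

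H3K27Ac varied within the upstream stretch with no steady order by distance. At 25 mM its lowest mean was at the farthest peak and its highest at the nearest, whereas peak 5 (17.6 kb upstream) and peak 7 (8.17 kb), with means of 4.76 and 4.66 RPKM, were below peak 3 (30.1 kb) at 11.8 RPKM. It was 3.41 and 2.87 RPKM at peak 1, 14.2 and 11.8 RPKM at peak 8 (6.53 kb upstream) and 18.5 and 19.2 RPKM at peak 9 (4.34 kb upstream). H3K18La was 24.0, 19.0 and 10.2 RPKM at peak 2, 15.7, 14.1 and 11.4 RPKM at peak 8 and 14.5, 7.01 and 12.01 RPKM at peak 9. Peak 9 was the only intergenic peak where H3K27Ac was higher by the test at 5 mM (difference 2.39, SE 0.54, limma adjusted p = 0.00533), where 2 of 3 H3K18La libraries held 0 reads. It did not pass there when scaled to reads in peaks or without H3K27Ac 5 mM replicate 2. The count of 1 of 9 was near the background, where 1759 of all 18244 tested intergenic peaks passed at 5 mM. At 25 mM the difference at peak 9 was 0.79 (SE 0.54, limma adjusted p = 0.316).

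The largest excess of H3K27Ac lay inside the gene. At 25 mM peak 26 differed by 2.68 (SE 0.70, limma adjusted p = 0.0106), where its H3K18La libraries held 3, 1 and 1 reads. It did not pass with a pseudocount of 0.1 (limma adjusted p = 0.108), scaled to reads in peaks (0.247) or without H3K27Ac 25 mM replicate 1 (0.144). Peak 30 had 11.7, 5.84 and 4.61 RPKM of H3K18La and 52.0 and 24.7 RPKM of H3K27Ac, a difference of 2.31 (SE 0.47, limma adjusted p = 0.00246). The 3 peaks of the first intron with the highest mean over the 10 libraries, peaks 13, 15 and 16 from 13.9 to 21.0 kb past the start, ranged from 8.77 to 25.3 RPKM of H3K18La and from 26.4 to 40.1 RPKM of H3K27Ac at 25 mM. Peak 13 had the highest H3K18La mean of the locus at 25 mM, 18.3 RPKM, an order that rested on replicate 1. In replicates 2 and 3 it had 12.8 and 16.8 RPKM, below 14.8 and 17.7 RPKM at peak 18. Peak 13 differed between the marks by 1.02 (SE 0.35, limma adjusted p = 0.0433).

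**Figure D4:**
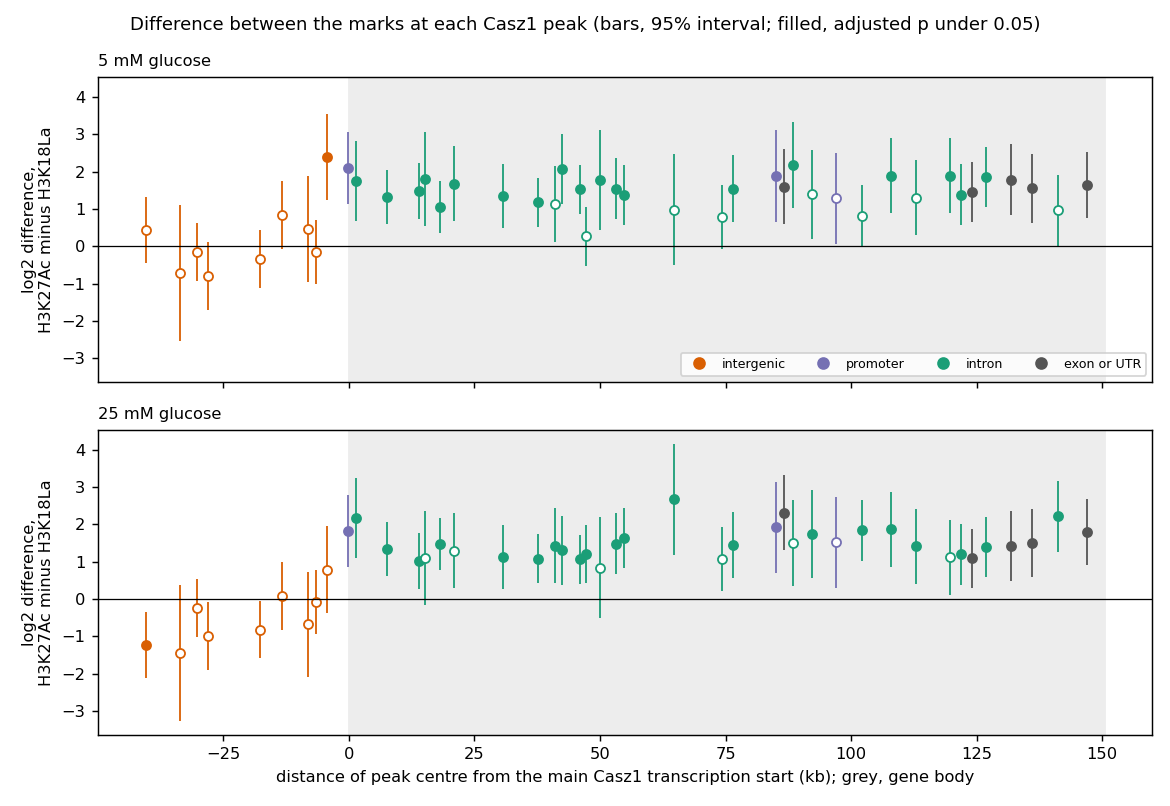
H3K27Ac minus H3K18La on the log2(RPKM + 0.5) scale at the 44 Casz1 peaks, at 5 mM (top) and 25 mM (bottom), by distance from the main transcription start in kb. Bars are 95% intervals from limma (2 H3K27Ac and 3 H3K18La libraries per level) and filled circles passed an adjusted p of 0.05. All peaks in the gene lie above 0 at both levels, and 7 of the 9 upstream peaks lie below 0 at 25 mM.

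Contrasts between peak classes within a library do not depend on a factor by which the library is scaled, apart from the pseudocount. The share of reads in peaks differed between the marks, and its part in these contrasts was not tested. In H3K18La libraries, mean log2(RPKM + 0.5) in introns minus that in intergenic peaks was -0.07, -0.34 and 0.54 at 5 mM and -0.35, -0.51 and -0.28 at 25 mM. For H3K27Ac it was 0.99 and 1.49 in low glucose and 1.67 and 1.49 in high glucose. Every H3K27Ac library was above every H3K18La library. The marks differed by 1.58 on average over the 2 glucose levels (exact two-sided permutation of the mark labels within glucose levels, p = 0.01, the smallest that 100 assignments allow, adjusted p = 0.015 over 3 contrasts).

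The contrast of promoters with intergenic peaks behaved likewise. It ranged from -1.43 to -0.54 in the 6 H3K18La libraries and from 0.33 to 1.91 in the 4 H3K27Ac libraries, and the marks differed by 1.90 (exact permutation p = 0.01, adjusted p = 0.015). Promoters minus introns ranged from -1.16 to -0.19 in H3K18La and from -0.88 to 0.24 in H3K27Ac libraries. The ranges overlapped and the marks differed by 0.32 (exact permutation p = 0.1, adjusted p = 0.1).

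**Figure D5:**
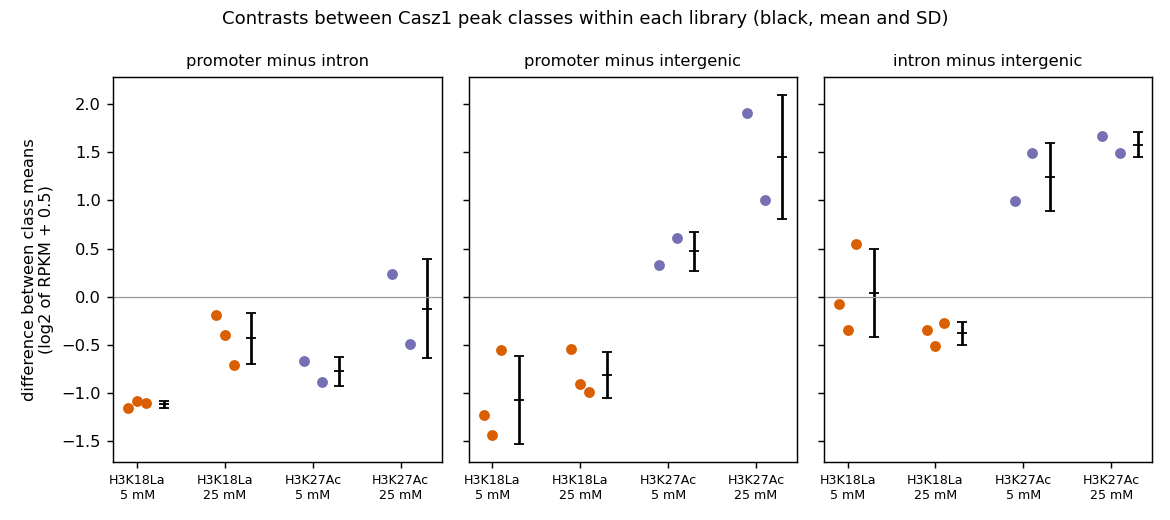
Difference between mean log2(RPKM + 0.5) of Casz1 peak classes within each library, in 3 panels (promoter minus intron, promoter minus intergenic, intron minus intergenic). Coloured points are libraries, black marks the group mean and SD (3 libraries per H3K18La group, 2 per H3K27Ac group). H3K27Ac and H3K18La libraries separate in both contrasts with intergenic peaks, by 1.90 and 1.58, and overlap for promoter minus intron.

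By class, intergenic peaks had the highest mean H3K18La and the lowest mean H3K27Ac. At 25 mM, width-weighted H3K18La was 11.8 RPKM ± 2.18 (SD, n = 3) in intergenic, 10.4 ± 2.71 in intronic and 8.58 ± 4.86 in promoter peaks. H3K27Ac was 8.52 RPKM ± 1.53 (SD, n = 2) in intergenic, 26.9 ± 7.41 in intronic and 32.0 ± 18.8 in promoter peaks. The intergenic and intronic means of H3K18La differed by less than their SD. At 5 mM the H3K18La means were 2.66, 2.09 and 0.750 RPKM in the same order, and the H3K27Ac means 2.34, 6.41 and 3.80 RPKM.

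A difference of this kind was common elsewhere and large at Casz1. Among 360 symbols with at least 3 tested peaks in introns and 3 in intergenic sequence, the mean mark difference in introns minus that in intergenic peaks had a median of 0.54 at 25 mM and was above 0 at 75.3% of symbols. It was 1.96 at Casz1, and 14 of the 360 symbols, Casz1 included, were at least as high. At 5 mM it was 1.20 at Casz1, with a median of 0.37 and 48 symbols at least as high. Across the 35 Casz1 peaks in the gene, mean log2 levels of the marks at 25 mM had a Pearson r of 0.85, and across the 9 intergenic peaks 0.50. At 5 mM these were 0.75 and -0.19. These are descriptions over peaks that share libraries and depth.

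Genes that regulate retinal timing and rod fate were read at the strongest promoter peak of each. Of 14 genes in the list, 12 were tested, and H3K27Ac rose with glucose at 8 (limma, adjusted p under 0.05), beside 20.0% of the strongest promoter peaks of all genes. Their median change was 1.78, beside 1.26 over all genes. Under the alternatives that left 0 Casz1 peaks called at 0.05, 0 of all peaks passed for the H3K27Ac change with glucose, so these rises and those in the lists that follow were lost too. The 8 were the photoreceptor homeodomain genes Crx (2.40, limma adjusted p = 0.0296) and Otx2 (1.73, 0.0486), the rod determinants Nrl (2.25, 0.0296) and Nr2e3 (1.94, 0.0298), and Rorb, Prdm1, Mef2d and Neurod1 (1.52 to 2.21). Rorb acts upstream of Nrl, and Prdm1 restrains bipolar fate. Those that did not pass included Pou2f1 (1.51, 0.0626), Pou2f2 (0.66, 0.531) and Lhx2 (0.16, 0.880). Ikzf1 and Foxn4, both genes of early progenitors, had promoter peaks under the minimum level.

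Subunits of NuRD, the chromatin-remodelling deacetylase complex that works with Casz1, formed another list of 14 genes. Of these, 13 were tested, and H3K27Ac rose at 1, Mta2 (1.79, limma adjusted p = 0.0395), beside 20.0% of the strongest promoter peaks of all genes, with a median change of 1.31 (1.26 over all genes). The ATPase gene Chd4 had 1.31 (0.0813) and the deacetylase genes Hdac1 and Hdac2 had 1.30 (0.173) and 1.31 (0.0925). The median H3K18La difference was 1.05, beside 0.96 over all genes and 1.64 in the list of temporal and rod regulators. At 25 mM, H3K27Ac was higher than H3K18La by the test at 11 of the 13 NuRD promoters, beside 63.7% of the strongest promoter peaks of all genes.

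The explants were also read for cell-type markers. Rod markers had promoter peaks at 6 of 6 genes, with a summed H3K27Ac of 38.7 to 69.8 RPKM at 5 mM and 190 to 352 RPKM at 25 mM, and a summed H3K18La of 9.30 to 12.5 and 44.8 to 117 RPKM. H3K27Ac rose at 5 of the 6, beside the 20.0% of all genes, among them Gnat1, the rod transducin subunit (2.44, limma adjusted p = 0.0296). Rod promoters therefore moved with glucose alongside Casz1, and their part in its values was not tested. Outside rods, H3K27Ac rose at Trpm1 (bipolar, 2.80, limma adjusted p = 0.0296), Glul (Muller glia, 1.40, 0.0476) and Slc6a9 (amacrine, 1.73, 0.0443), 1 gene each of the 4, 4 and 2 tested. None of 3 cone, 1 microglial and 2 pigment epithelium genes tested passed, and no ganglion cell marker reached the minimum level. In whole explants, more cells of a type and more signal per cell cannot be told apart.

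The promoters most like peak 29 over the 10 libraries, by Pearson r of log2(RPKM + 0.5), were those of Rgs9 (0.993), a regulator of phototransduction shut-off, Ptp4a3 (0.992) and Mlf1 (0.991). Their means ran in the same order of groups as at peak 29, from 2.35 RPKM in H3K18La at 5 mM to 28.3 RPKM in H3K27Ac at 25 mM for Rgs9. These r values follow the 4 groups, and 1391 of 12656 genes had an r over 0.9.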

How the data were processed

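The authors aligned paired-end CUT&Tag reads to GRCm38 with nf-core/cutandrun, called peaks with MACS, removed blacklisted regions, annotated peaks with ChIPseeker 1.34.1 and counted reads with csaw over merged peaks. The methods describe these as H3K18La peaks of retinas at several postnatal ages and, for the explant principal components, as peaks of both marks, and the number of deposited peaks equals that of the former set. A set selected on H3K18La bears on each comparison of the marks and on its backgrounds. They deposited RPKM per peak and library. A second deposited table held their H3K18La fold changes, p-values (edgeR 3.40.2) and group means, and was not used. Promoters reached from 1000 bp upstream to 500 bp downstream of a start site. The deposited protocol names H3K9me3 and MNase where the study's methods name H3K27Ac and Tn5, and the marks follow the sample titles.

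Tests used limma 3.58.1 in R 4.3.3 on log2(RPKM + 0.5), which understates changes of weak peaks, in 1 fit of 4 groups over the 72467 peaks with a mean of at least 1 RPKM, with Benjamini-Hochberg adjustment at 0.05. This replaced the study's count model because the deposited unit was RPKM. Whole reads could be recovered from it, and voom on those reads was an alternative. Class contrasts and locus means used exact permutations. Python 3.11.15 read the files. Scripts were tested on simulated data.

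The members, gene lists and named-peak rule were chosen with earlier results of these data known. The values of some list members are not reported here. Named peaks were all promoter peaks, the 3 strongest of each other class (first intron, later introns, exons or UTR, intergenic) and the 2 largest mark differences at 25 mM in each direction. Peaks 5, 7, 9, 43 and 44 fall outside that rule and were chosen after their values were seen. Alternatives were other pseudocounts, filters, scalings, robust moderation, a replicate block, a threshold of 0.01 and leaving out each library. Leaving out peaks without a read in some library was added after seeing the data. Same-numbered libraries of different groups had deviations that correlated from -0.02 to 0.19, over 0.1 in 1 of 13 pairs, so the numbers were not treated as pairs.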

Additional observations from a re-analysis of the deposited data

How the results depend on the processing

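All 44 peaks passed the minimum level, so that filter changed no locus or class value. The class contrasts of introns and promoters against intergenic peaks kept their direction and an exact p under 0.05 under each alternative, from 1.45 to 1.70 and from 1.68 to 2.13 without 1 library. Promoter minus intron passed with a pseudocount of 0.1 (0.53) and ranged from 0.14 to 0.51 without 1 library. The ratios of locus means were 1.78 for both marks scaled to reads in peaks, and without 1 library ranged from 4.21 to 5.33 for H3K18La and from 3.34 to 5.82 for H3K27Ac.

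The counts moved more. The 34 peaks with higher H3K27Ac at 25 mM became 0 with a pseudocount of 0.1, without the filter on low peaks, with libraries centred on their medians, scaled to reads in peaks, or at a threshold of 0.01, and 0 to 41 without 1 library. H3K27Ac above H3K18La at 5 mM (27) became 5 with centring, 1 scaled to reads in peaks, 17 with each level fitted alone, 12 at 0.01, and 1 to 29 without 1 library. At 25 mM (28) it became 15 with a pseudocount of 0.1, 12 with centring, 0 scaled to reads in peaks, 10 at 0.01, and 1 to 34 without 1 library. H3K18La above H3K27Ac at 5 mM (0) became 1 with centring and 3 scaled to reads in peaks, and 0 to 1 without 1 library. At 25 mM (1) it became 0 with a pseudocount of 0.1, without the filter or at 0.01, 3 with centring, 4 scaled to reads in peaks, with each level fitted alone or with voom, 2 with H3K18La 5 mM replicates 2 and 3 averaged, and 0 to 2 without 1 library. Voom on recovered reads called 43 Casz1 peaks for the H3K27Ac change and 26756 of all peaks.

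Median differences over the 44 peaks for H3K18La, H3K27Ac, and the marks at 5 mM and 25 mM were 1.23, 1.24, 0.72 and 0.84 with centring (0.16, 0.14, 0.14 and 0.05 over all tested peaks), and 0.87, 0.71, 0.47 and 0.40 scaled to reads in peaks (0.05, -0.21, 0.09 and -0.23). Without 1 library they ranged from 2.00 to 2.18, 1.60 to 2.28, 1.04 to 1.78 and 0.98 to 1.54. With the replicate block, which does not follow a pairing of the libraries, the counts were 36, 24 and 19, and H3K18La was above H3K27Ac at 3 peaks at 25 mM.

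Single named peaks reversed as follows. H3K18La with glucose became -0.62 at peak 26 with centring, -0.57 scaled to reads in peaks, -0.19 with voom and -0.45 to 0.69 without 1 library, and -0.11 at peak 15 scaled to reads in peaks. H3K27Ac with glucose became -0.34 at peak 1 scaled to reads in peaks. The mark difference at 5 mM became -0.24 with centring and -0.43 scaled to reads in peaks at peak 1, and without 1 library ranged from -0.70 to 0.41 at peak 8 and from -0.33 to 0.010 at peak 3. At 25 mM it ranged from -0.20 to 0.058 at peak 8 and from -0.51 to 0.0094 at peak 3. For other changed values the cause was not tested. H3K18La values at 5 mM are limited by the few reads that single peaks held there.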
